A study of Mus musculus with 5 samples.

Results

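Gluconeogenesis, glycolysis and fructose metabolism were followed through 31 genes of the mouse kidney, out of 17389 genes measured. The genes were taken from a list of enzymes, transporters and regulators, not from their values, but with earlier results of these data known. All 31 were found in the count matrix. Cells of adult kidneys of the FVB/Ant strain were dissociated with collagenase P and trypsin, captured in droplets and sequenced from the 3′ end of their RNA with molecule barcodes (unique molecular identifiers, UMIs) that let a captured molecule be counted once. The mutant mice were *Fame* knockouts (KO), in which CRISPR/Cas9 editing had placed a double stop codon behind the start codon of a gene that the matrix lists as *Ccdc198*. Wild-type (WT) littermates were the controls. The KO group has 3 libraries (KO female, KO male and KO mix) and the WT group has 2 (WT female and WT mix), where mix stands for pooled cells of both sexes. There is no library of WT males alone, so genotype and sex overlap in part. The sources used here do not give how many mice went into a library, and p-values measure only the spread between libraries.

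The libraries held 1794 to 3567 cells and 9791091 to 15950717 UMIs each, 14197 cells and 60492486 UMIs in all, and 25 of 14172 cell barcodes occurred in more than 1 library. The annotation of the authors labels the 3 single-sex libraries run 2 and both mixed libraries run 3. The mixed libraries stood apart. Their median share of mitochondrial UMIs was 29.4% in KO mix and 28.4% in WT mix, against 12.6% to 15.3% in the other libraries, and the 31 genes held 0.924% of UMIs in KO mix and 1.04% in WT mix, against 1.33% to 1.55%. Run and mixing cannot be told apart. Cell types are those of the authors, and markers of the proximal tubule (PT), the loop of Henle (LOH), the distal convoluted tubule (DCT), the principal (CD PC) and intercalated (CD IC/CD Trans) cells of the collecting duct and the glomerular endothelium (GL endo) were high in the types of those names. Not every PT marker was high in every PT cluster. In cluster PT1, pooled over libraries, *Slc5a2*, *Slc5a12*, *Slc13a3* and *Lrp2* had 65.6, 59.7, 119 and 545 counts per 1000000 UMIs (CPM). Red blood cells had 106, 128, 164 and 560 CPM. *Slc34a1*, *Cubn* and *Slc22a6* were at 1200, 81.1 and 273 CPM in PT1, against 1099, 70.65 and 193 CPM in red blood cells. Cluster PTf had 24.05 and 15.0 CPM of *Slc5a2* and *Slc5a12*. The glucose transporter gene *Slc5a1*, listed for the straight PT segment, was highest in LOH. A stop codon does not remove the 3′ end of a transcript, so the *Ccdc198* counts do not check the genotype. They were 124.5, 52.6 and 59.5 CPM in the PT cells of KO female, KO male and KO mix. WT female and WT mix had 182.2 and 51.4 CPM.

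Glycolysis splits glucose into pyruvate, and gluconeogenesis runs the same reversible steps backwards while replacing the irreversible ones with enzymes of its own. In the kidney the proximal tubule is known as the gluconeogenic part of the nephron, making glucose from lactate, glutamine and glycerol, and it also takes up and breaks down fructose. The distal nephron is known for glycolysis and for hexokinase activity.

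The promoters of 3 of the genes described next are shown because these genes were high in the proximal tubule and because the letters GTTAAT, 1 arm of the palindromic site bound by the tubule and liver factor HNF1, occurred in front of them. Capitals mark that arm on either strand. Sequences are those of RefSeq on GRCm38.p6, 5′ to 3′ on the strand of the gene, from chr2:173152823-173153047 (*Pck1*, plus strand), chr11:101367466-101367560 (*G6pc*, plus strand) and chr9:106158139-106158388 (*Glyctk*, minus strand).
Pck1: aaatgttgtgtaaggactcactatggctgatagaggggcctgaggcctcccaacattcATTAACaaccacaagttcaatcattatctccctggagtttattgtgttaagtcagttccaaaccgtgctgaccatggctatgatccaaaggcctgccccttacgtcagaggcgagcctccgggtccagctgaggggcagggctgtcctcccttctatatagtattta
G6pc: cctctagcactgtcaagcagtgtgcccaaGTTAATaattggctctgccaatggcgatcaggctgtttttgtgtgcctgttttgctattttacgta
Glyctk: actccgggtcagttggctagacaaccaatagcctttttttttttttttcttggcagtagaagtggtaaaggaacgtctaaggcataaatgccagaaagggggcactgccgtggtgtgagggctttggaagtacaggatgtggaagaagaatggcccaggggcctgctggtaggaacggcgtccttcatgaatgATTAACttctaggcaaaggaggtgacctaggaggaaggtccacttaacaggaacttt

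Each printed stretch ends before the GENCODE start of the gene, which lies upstream of the RefSeq start in *Pck1* and *G6pc*. Counted from its first base, the arm lay 192 bases before the RefSeq start of *Pck1* and 221 before that of *G6pc*. In *Glyctk* it lay 57 bases before that start. *Khk* held one 60 bases before its RefSeq start, but that arm did not lie wholly before its GENCODE start. The stretch of *Khk* is therefore not printed. Among the 8 genes that were high in PT in every library, listed further on, 4 held it within 250 bases of the RefSeq start, *Khk* included. Among the 6 that were low there, 0 did. Of the 31 genes 5 held it, *Pdha1* being the fifth, against 7.49% of the 27025 genes with a promoter in the table. The whole site GTTAATNATTAAC was in front of 0 of the 31 genes (0.0111% of all genes), and the HNF4A site CAAAGTCCA in front of 0 (0.451%). The cyclic AMP element TGACGTCA occurred in front of *Ldha* alone (1.77% of all genes), and the part of it written TGACG in front of 6 of the 31 (19.8%). The E-box CACGTG occurred in 5 (6.86%), and ACGTG, the core of the hypoxia response element that is also contained in this E-box, in 12 (18.5%). Both strands were searched. A match of letters is a description and not a binding site.

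The enzymes *Pck1*, *G6pc*, *Fbp1* and *Pcx* carry out the irreversible steps of gluconeogenesis, and all of them were proximal tubule genes here. Values between genes are not divided by transcript length, because each molecule is tagged once at its 3′ end, and capture can still differ between genes. *Pck1*, the cytosolic phosphoenolpyruvate carboxykinase (chromosome 2, 173153048 to 173159273 on GRCm38, plus strand), had the highest mean over libraries of the 31 genes in PTs, PTc, PT1 and PT2. Single libraries could differ, and in KO male it was below *Ldhb* in PTs and PT1. In the straight-segment cells (PTs) it stood at 6525, 1784 and 1430 CPM in KO female, KO male and KO mix, against 6886 and 1575 CPM in WT female and WT mix. The levels fell into a high pair of female libraries and a low group of 3, and the genotypes overlapped. The other PT clusters (PTc, PT1 and PT2) had the same pattern, from 1149 CPM in PTc of KO mix to 7077 CPM in PT1 of WT female. LOH had 298, 73.6 and 182 CPM in the KO libraries, against 198 and 169 CPM in the WT libraries.

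*G6pc*, the catalytic subunit of glucose-6-phosphatase that releases free glucose, was highest in the convoluted-segment cells (PTc), with 662, 634 and 290 CPM in KO female, KO male and KO mix, against 695 and 430 CPM in WT female and WT mix. PT1 had only 93.3 to 185 CPM over the 5 libraries, and LOH 27.7 to 39.0 CPM. *Fbp1*, the fructose bisphosphatase (chromosome 13, 62864753 to 62888282, minus strand), was highest in PT1, with 1156, 1090 and 1907 CPM in the KO libraries, against 1082 and 2241 CPM in the WT libraries. Here both mixed libraries were the high ones, and the range of PT1 did not overlap that of PTs, the next type in the order. In LOH *Fbp1* ran from 27.7 to 127 CPM. *Pcx*, pyruvate carboxylase, which makes the oxaloacetate that *Pck1* uses, averaged 118 ± 14.3 CPM in PTc and 115 ± 16.1 CPM in PTs (SD, n = 5 libraries), a difference within the spread.

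*Ppargc1a*, the transcriptional coactivator PGC-1α that is known to raise gluconeogenic genes in liver, did not follow them. It was highest in LOH, with 284, 333 and 354 CPM in KO female, KO male and KO mix, against 320 and 415 CPM in WT female and WT mix. PTs had 55.4, 34.1 and 42.3 CPM in the KO libraries, against 73.6 and 47.2 CPM in the WT libraries, so LOH was above PTs in each library by 2.77 ± 0.51 on the log2(CPM + 1) scale (SD, n = 5).

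**Figure D1:**
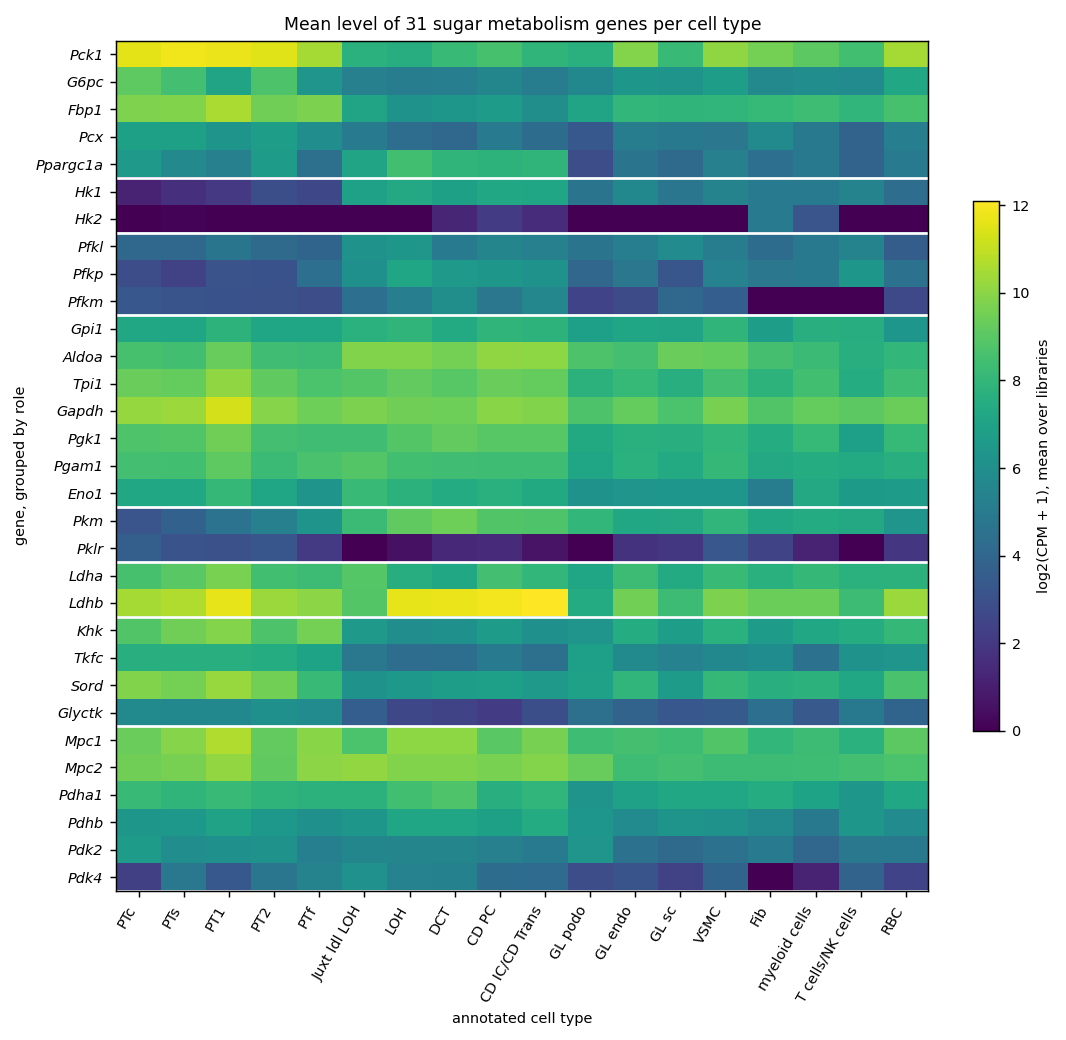
Mean level of each of the 31 genes (rows, grouped by role) in 18 annotated cell types (columns), as log2(CPM + 1) averaged over libraries with at least 20 cells of the type. *Pck1*, *Fbp1*, *Khk* and *Sord* are bright in the PT columns, while *Hk1*, *Pfkp* and *Pkm* are dark there and bright in LOH, DCT and the collecting duct.

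Fructose and sorbitol enzymes sat with gluconeogenesis. *Khk*, ketohexokinase, which phosphorylates fructose, averaged 913 ± 82.3 CPM in PT1 (SD, n = 5), and stood in PTs at 860, 807 and 541 CPM in KO female, KO male and KO mix, against 740 and 586 CPM in WT female and WT mix. LOH had 43.4 to 89.7 CPM. *Sord*, sorbitol dehydrogenase, which turns sorbitol into fructose, averaged 1184 ± 443 CPM in PT1 and had 876, 1185 and 350 CPM in PTs of the KO libraries, against 915 and 482 CPM in the WT libraries. KO male was the highest and both mixed libraries the lowest. *Tkfc*, the kinase of glyceraldehyde and dihydroxyacetone, averaged 200 ± 46.4 CPM in PTc, 195 CPM in PT1 and 193 CPM in PTs, which do not differ beyond their spread. *Glyctk*, glycerate kinase, was the least abundant of these with 67.4 ± 12.1 CPM in PT2. PTf, a further cluster of 275 cells named for cells found in females and not counted among the 4 PT clusters, had 1418 ± 671 CPM of *Pck1*, 850 ± 109 CPM of *Fbp1*, 294 ± 127 CPM of *Sord* and 78.6 ± 33.9 CPM of *G6pc* (SD, n = 4 libraries).

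In each of the 5 libraries, 8 of the 31 genes (*Pck1*, *G6pc*, *Fbp1*, *Pcx*, *Khk*, *Tkfc*, *Sord* and *Glyctk*) were higher in all 4 PT clusters than in LOH, DCT, CD PC and CD IC/CD Trans. Over the 9715 genes with a mean of at least 10 CPM in 1 of these 8 types, 5.16% had this order. Another 6 (*Ppargc1a*, *Hk1*, *Pfkp*, *Pfkm*, *Aldoa* and *Pkm*) were lower in all 4 PT clusters in each library, against 5.58% of the 9715 genes, and 17 had neither order. Only 30 of the 31 genes reached 10 CPM, *Hk2* being the exception. Cell types were clustered from the expression of all genes, so these orders are descriptions and were not tested. By the type with the highest mean, 17 of the 31 were highest in a PT cluster (10 of them in PT1), 13 in LOH, DCT, the collecting duct or the juxtamedullary thin limb (Juxt ldl LOH), and 1, *Hk2*, in fibroblasts. Exons of 11 of the 31 overlap an antisense gene of the matrix, among them *Hk1* (*Hk1os*), *Pfkp* (*Pitrm1*), *Pfkm* (*Senp1*), *Aldoa* (*Fam57b*), *Gapdh* (*Iffo1*), *Tkfc* (*Ddb1*) and *Glyctk* (*D030055H07Rik*), and *Pfkm* also overlaps *Gm26513* on its own strand. Whether counting used the strand is not stated, so reads of such pairs may not have been told apart. *Hk1os* itself had 0 to 5 UMIs in the PT cells of a library.

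PT genes were also counted in cells of other kinds. In red blood cells, which do not make glucose, the 8 PT genes had a median of 32.4% to 46.3% of their PTs level in the 4 libraries with at least 20 such cells, in GL endo 22.5% to 34.8% and in LOH 5.42% to 17.8%. Each cell was thinned to 1000 UMIs. *Pck1* was then detected in 68.7% to 98.7% of PTs cells, 43.9% to 75.2% of red blood cells and 4.71% to 25.9% of LOH cells. *Hk1* showed the opposite, with a mean over libraries of 14.5% of LOH cells, against 0.285% of PTs cells and 2.50% of red blood cells, and *Pkm* was detected in 41.1% of LOH cells, against 1.35% and 9.09%. For both distal genes the lowest LOH share lay above the highest red blood cell share. The part of PT RNA in the LOH share of *Pck1* was not tested.

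The irreversible steps of glycolysis had the mirror image. *Hk1*, the hexokinase that traps glucose in the cell (chromosome 10, 62268855 to 62379908, minus strand), had 143, 137 and 158 CPM in LOH of KO female, KO male and KO mix, against 167 and 172 CPM in WT female and WT mix, and means of 1.29 to 6.46 CPM in the PT clusters. LOH was above PTs by 5.86 ± 0.85 on the log2(CPM + 1) scale (SD, n = 5). The ranges of LOH, CD PC and CD IC/CD Trans overlapped, and DCT, at 118 ± 18.1 CPM, was below LOH in each library. *Hk2*, the inducible hexokinase, had 0 UMIs in PTc, PT1, PT2 and LOH in every library, and was at most 13.5 CPM in CD PC. Its highest mean, 31.7 CPM in fibroblasts, rests on 2 libraries with an SD of 44.8 CPM.

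Phosphofructokinase, the committing step of glycolysis, has liver (*Pfkl*), muscle (*Pfkm*) and platelet (*Pfkp*) forms. All 3 were lower in PTs than in LOH in each library, and the mixture changed along the nephron. *Pfkp* was highest in LOH at 143 ± 17.5 CPM, with means of 4.24 to 7.54 CPM in PTs, PTc, PT1 and PT2 and 20.3 ± 16.8 CPM in PTf (n = 4). *Pfkl* was highest in LOH at 84.5 ± 10.8 CPM and had 15.3 CPM in PTs. *Pfkm* was highest in DCT at 62.4 ± 15.0 CPM (SD, n = 5 each). Of the phosphofructokinase UMIs of a library, *Pfkl* held 55.1% ± 7.6 in PTs (SD, n = 5), 32.2% ± 4.7 in LOH (n = 5) and 13.0% ± 2.7 in DCT (n = 4). *Pfkp* held 15.9% in PTs, 54.4% in LOH and 56.0% in DCT. *Pfkm* held 29.0% in PTs, 13.3% in LOH and 31.01% in DCT. The liver form was the leading one in PTs in each library and the platelet form in LOH in each library, and the *Pfkl* shares of PTs and LOH did not overlap. In DCT the platelet form led in 4 libraries. DCT of WT mix was left out of these shares because it held under 30 phosphofructokinase UMIs, with 8 UMIs of *Pfkl*, 7 of *Pfkp* and 14 of *Pfkm*, so that *Pfkm* came first there. These shares rest on 607 UMIs in PTs and 1693 in LOH.

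*Fbp1* and the phosphofructokinases catalyse opposite directions of 1 step, so their transcripts were set in a ratio. *Fbp1* UMIs were a median of 38.2 times the sum of the 3 phosphofructokinases in PTs (23.9 to 49.99 over 5 libraries) and 0.227 times in LOH (0.102 to 0.497). The ranges were far apart.

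Pyruvate kinase closes glycolysis, and its M form *Pkm* was distal. In DCT it stood at 787, 839 and 445 CPM in KO female, KO male and KO mix, against 787 and 624 CPM in WT female and WT mix. PTc averaged 8.04 ± 1.29 CPM, PTs 12.4 ± 8.59 CPM and PT2 37.0 ± 8.53 CPM. *Pklr*, the liver and red cell form, was scarce and averaged 11.5 ± 4.76 CPM in PTc. There its ratio to *Pkm* had a median of 1.5 (0.824 to 2.11, n = 5), while in PTs the ratio was 0.632 (0.468 to 0.857). In PTc *Pklr* exceeded *Pkm* in KO female, WT female and WT mix. In KO male and KO mix it had 10 and 14 UMIs, against 11 and 17 of *Pkm*.

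**Figure D2:**
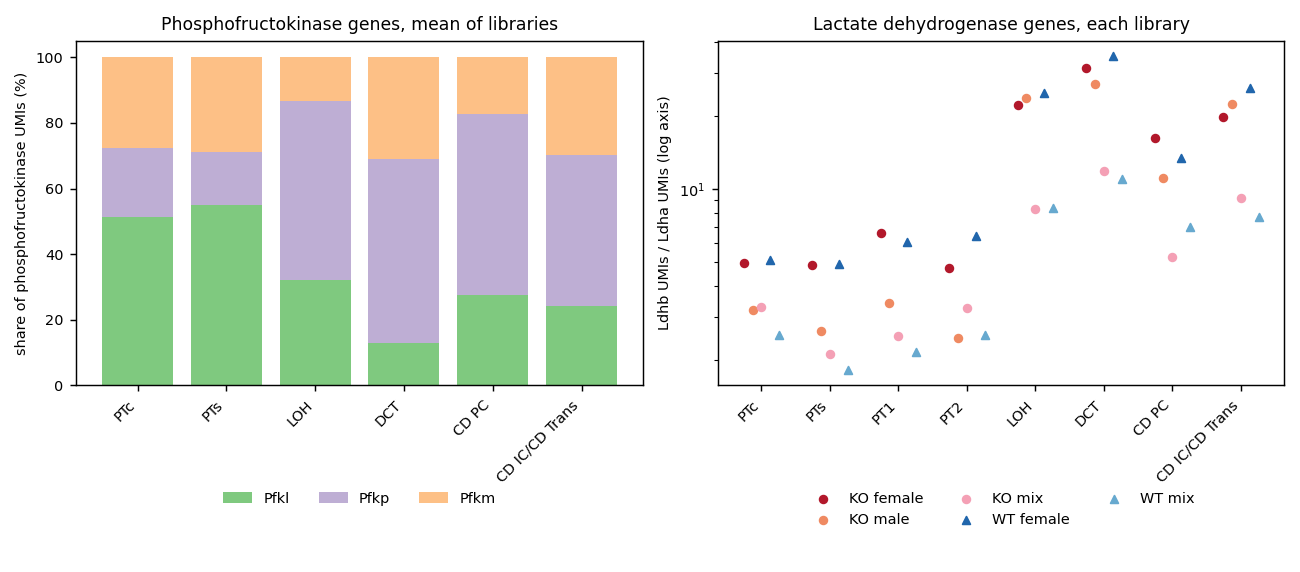
Left, mean share (%) of each phosphofructokinase gene among phosphofructokinase UMIs, as stacked bars, in 6 cell types, with *Pfkl* at 55.1% in PTs and 13.0% in DCT. Right, ratio of *Ldhb* to *Ldha* UMIs (log axis) in 8 cell types, 1 point per library (circles KO, triangles WT), with medians of 2.61 in PTs and 22.1 in LOH.

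Lactate dehydrogenase joins lactate and pyruvate, the A form being known as the one of lactate-making and the B form as the one of lactate-using tissues. *Ldha* (chromosome 7, 46841475 to 46855627, plus strand) and *Ldhb* (chromosome 6, 142490249 to 142507957, minus strand) differed in where they were high. *Ldhb* was highest in CD IC/CD Trans, with 5590, 5979 and 2175 CPM in KO female, KO male and KO mix, against 6090 and 2135 CPM in WT female and WT mix. Both mixed libraries were lower by more than 2-fold, in either genotype. In PTs *Ldhb* had 2138, 2092 and 859 CPM in the KO libraries, against 2147 and 802 CPM in the WT libraries. *Ldha* was highest in PT1 at 803 ± 190 CPM, and in PTs had 440, 800 and 409 CPM in the KO libraries, against 434 and 442 CPM in the WT libraries, with KO male alone high. LOH had 186 ± 13.3 CPM of *Ldha*. The ratio of *Ldhb* to *Ldha* had a median of 2.61 in PTs (1.82 to 4.95), 22.1 in LOH (8.27 to 24.8) and 26.9 in DCT (10.96 to 34.96), and LOH and DCT each lay above PTs without overlap (n = 5 libraries).

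The reversible steps serve both directions, and they were spread over the nephron. *Gapdh*, glyceraldehyde-3-phosphate dehydrogenase, averaged 2570 ± 278 CPM in PT1 and 1256 ± 134 CPM in PTs, its next type. *Tpi1*, triose phosphate isomerase, averaged 1085 ± 225 CPM in PT1 and 643 CPM in CD PC, without overlap. *Pgk1*, phosphoglycerate kinase, at 719 CPM and *Pgam1*, phosphoglycerate mutase, at 546 CPM were also highest in PT1, but overlapped the next type. *Eno1*, enolase, had 286 CPM in Juxt ldl LOH (n = 2 libraries) and 270 CPM in PT1, which overlapped, and its near copy *Eno1b* had 3.96 to 7.84 CPM in PT. *Aldoa*, the muscle-type aldolase, at 1087 ± 92.6 CPM and *Gpi1*, glucose-6-phosphate isomerase, at 238 ± 35.4 CPM were highest in CD PC (SD, n = 5). The means of *Gpi1* in CD PC and LOH were 238 and 237 CPM.

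*Mpc1* and *Mpc2* form the carrier that takes pyruvate into mitochondria, and both were highest in PT1, at 1618 ± 158 and 1141 ± 284 CPM. The range of *Mpc2* overlapped that of Juxt ldl LOH, its next type, at 1137 CPM (n = 2). *Pdha1* and *Pdhb*, the E1 subunits of pyruvate dehydrogenase, peaked in the distal nephron, at 432 ± 82.2 CPM in DCT and 173 ± 11.6 CPM in CD IC/CD Trans. The pyruvate dehydrogenase kinases *Pdk2* and *Pdk4*, which switch the complex off, differed from each other. *Pdk2* was highest in PTc at 97.9 ± 16.3 CPM, and *Pdk4*, the form known to be induced by fasting, in Juxt ldl LOH at 67.6 CPM (n = 2). In PTs *Pdk4* had 41.2, 3.64 and 19.2 CPM in KO female, KO male and KO mix, against 50.6 and 23.0 CPM in WT female and WT mix. KO male was the lowest by 5-fold or more.

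Across the 18 cell types with levels, the mean log2(CPM + 1) of *Fbp1* correlated with that of *Khk* at r = 0.954, of *Sord* at 0.911, *Pck1* at 0.907, *Glyctk* at 0.869, *Tkfc* at 0.851, *Pcx* at 0.815 and *G6pc* at 0.802, while *Pkm* stood at -0.918 and *Hk1* at -0.94. Correlated with *Hk1* instead, *Pkm* had r = 0.954 and *Pfkp* 0.9. The types share libraries, so these values describe likeness of pattern and carry no p.

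Within the proximal tubule the straight-segment cells differed from the convoluted ones in a few genes. PTs was above PTc in each of the 5 libraries in 6 of the 31 genes, against 13.1% of the 9715 genes, and below it in 7, against 18.9%. The 6 were *Pdk4*, by 2.26 ± 0.86, *Khk*, by 0.65 ± 0.22, *Mpc1*, by 0.56 ± 0.29, *Ldha*, by 0.40 ± 0.19, *Mpc2* and *Gapdh* (log2, SD, n = 5). The 7 were *Ppargc1a* at -0.89 ± 0.41, *Pdk2* at -0.73 ± 0.44, *Pklr* at -0.61 ± 0.35, *G6pc* at -0.59 ± 0.25, *Sord*, *Pdha1* and *Aldoa*. Between these segments *Pdk4* therefore was higher on the straight side and *Pdk2* on the convoluted side. The ratio of *Pdk4* to *Pdk2* had a median of 0.412 in PTs (0.0847 to 0.752, n = 5). *Pdk2* thus had more UMIs than *Pdk4* in PTs in each library. In the 2 libraries of PTc with enough UMIs the median ratio was 0.0605.

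PT1 stood out from PTs more widely. It was higher in each library in 17 of the 31 genes, against 20.8% of all genes, and lower in 4, against 25.3%. The median difference was 0.52 over the 31 genes and -0.13 over all genes on the log2 scale. *Gapdh* was higher by 1.03 ± 0.20, *Ldhb* by 1.01 ± 0.13, *Aldoa* by 0.89 ± 0.15 and *Tpi1* by 0.86 ± 0.22, and the whole run of reversible steps was among the 17. The 4 lower genes were *Pdk4* at -1.50 ± 0.80, *G6pc* at -1.41 ± 0.37, *Pcx* at -0.62 ± 0.26 and *Ppargc1a* at -0.40 ± 0.26 (SD, n = 5). PT1 cells were shallow, with a median of 1346 to 1770 UMIs per cell over the libraries, against 4113 to 8708 in PTs, and their median mitochondrial share was 5.48% to 20.4%, against 13.8% to 31.1%. The part of depth and mitochondrial share in this difference was not tested.

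**Figure D3:**
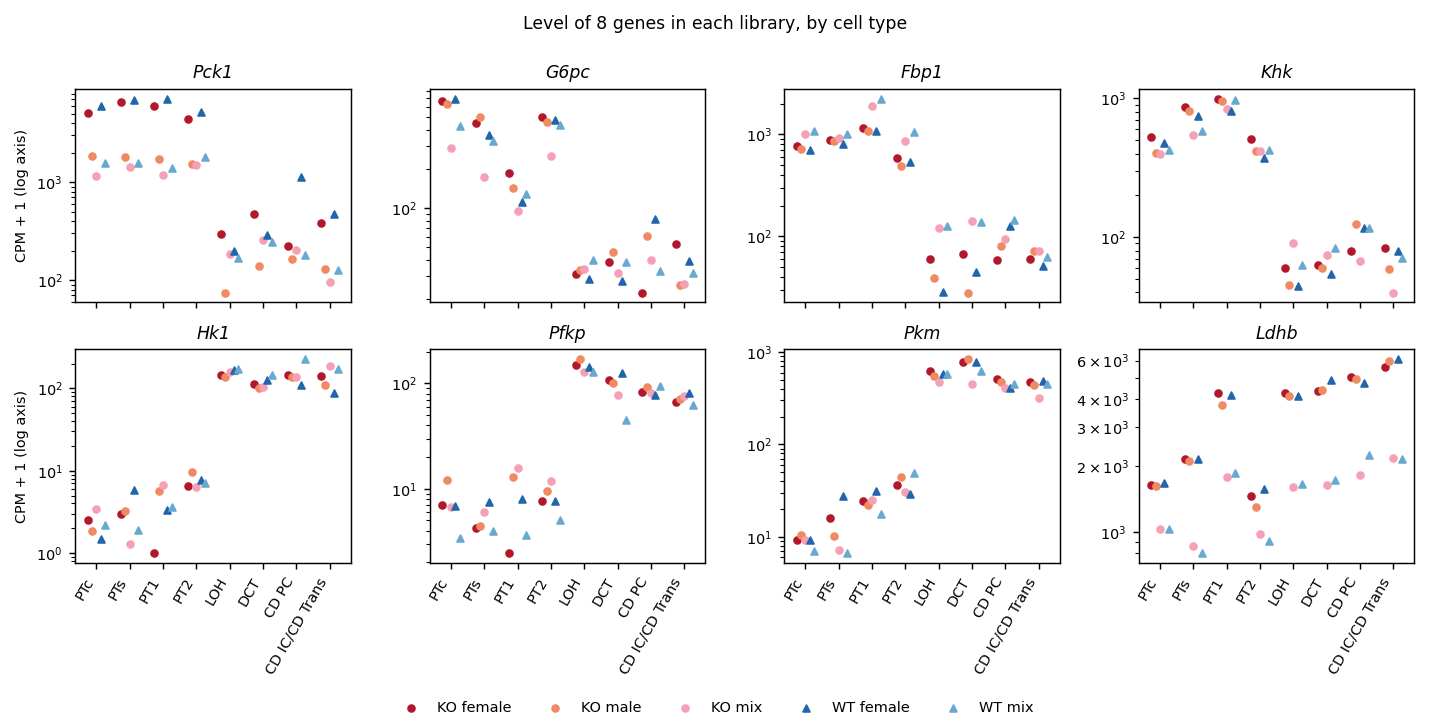
Level (CPM + 1, log axis) of 8 genes in each library (circles KO, triangles WT) in 4 PT clusters, LOH, DCT, CD PC and CD IC/CD Trans. In PTs the points of *Pck1* lie at 6525 and 6886 CPM in the female libraries and between 1430 and 1784 CPM in the other libraries.

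Between the neighbouring distal segments, DCT was above LOH in each library in 6 genes, against 9.82% of all genes, and below it in 8, against 15.7%. The higher genes were *Pfkm* by 0.79 ± 0.40, *Pck1* by 0.63 ± 0.17, *Sord* by 0.35 ± 0.18, *Pgk1* by 0.34 ± 0.06, *Pdha1* by 0.30 ± 0.12 and *Ldhb* by 0.09 ± 0.09. *Pfkl* at -1.60 ± 0.64, *Pfkp* at -0.73 ± 0.49, *Ppargc1a* at -0.48 ± 0.15 and *Gpi1* at -0.48 ± 0.20 were the lowest (log2, SD, n = 5). The summed level of the 7 PT markers was also above LOH in DCT in each library, at 551, 437 and 952 CPM in DCT and 417, 280 and 727 CPM in LOH of KO female, KO male and KO mix, and at 410 and 693 CPM in DCT and 284 and 531 CPM in LOH of WT female and WT mix. Its part in the values of *Pck1* and *Sord* was not tested. By mean share of phosphofructokinase UMIs, *Pfkl* held less and *Pfkm* more in DCT (n = 4) than in LOH (n = 5). *Pfkp* held 54.4% in LOH and 56.0% in DCT, although its level was lower in DCT.

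The mixed libraries differed from the single-sex ones in both genotypes, which touches every level above. In PTs, 17 of the 26 genes with a mean of at least 10 CPM lay below all single-sex libraries in both mixed ones, against 36.9% of 6669 genes, and 2, *Fbp1* and *Mpc2*, lay above, against 16.2%. On a scale without mitochondrial UMIs 9 of the 26 lay below, against 20% of 7369 genes, and 3 lay above, against 30.8%. In LOH, 11 of 28 lay below, against 35.8% of 7540 genes, and 11 lay above, against 19.5%. Without mitochondrial UMIs 4 of 28 lay below, against 15.4% of 8416 genes, and 18 lay above, against 43%. The median of all genes, mixed over single-sex, moved with this scaling, being -0.22 on the CPM scale and 0.07 without mitochondrial UMIs in PTs, and -0.13 and 0.28 in LOH (log2). In PTs *Pck1* was furthest below, with means of 1502 CPM in the mixed and 5065 CPM in the single-sex libraries, and *Ldhb* had means of 831 CPM in the mixed and 2125 CPM in the single-sex libraries. In LOH the summed level of 7 PT markers was 727 and 531 CPM in KO mix and WT mix, against 280 to 417 CPM in the other libraries, and *Fbp1* and *Khk* were among the genes that lay above there. Run, pooling of sexes and mitochondrial share cannot be told apart.

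Among the genes that had 1 direction in all 3 contrasts described here, female and male cells differed most in *Pck1*. The comparison was chosen after the levels were seen. It sets KO female against KO male, and within each mixed library cells with *Xist* UMIs against cells with UMIs of Y-linked genes, all in the 4 PT clusters. In KO mix 713 and 255 of 1852 PT cells could be assigned, and in WT mix 182 and 464 of 2035, while the rest had UMIs of neither or both. *Pck1* stood at 5818 CPM in KO female and 1775 CPM in KO male, at 1768 and 857 CPM in female and male cells of KO mix, and at 2667 and 1460 CPM in those of WT mix. The log2 differences were 1.71, 1.05 and 0.87, so female cells were higher in 3 of 3 contrasts. Yet female cells of both mixed libraries remained well below the female libraries. In PTs alone the differences were 1.87, 1.27 and 1.20, and in PTc alone 1.45, 1.13 and 0.42. Restricting KO female to cells with *Xist* left *Pck1* at 5783 CPM, and KO male to cells with Y-linked UMIs at 1815 CPM. Sexed female and male cells had medians of 4428 and 5421 UMIs in KO mix and 3668 and 4060.5 in WT mix.

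*Ldha* ran the other way, with 407 CPM in KO female and 752 CPM in KO male, 302 and 457 CPM in female and male cells of KO mix, and 313 and 516 CPM in those of WT mix. The log2 differences were -0.89, -0.60 and -0.72. *Tpi1* was lower in female cells at -0.49, -0.43 and -0.48, *Sord* at -0.37, -0.38 and -0.41 and *Mpc1* at -0.21, -0.32 and -0.35. Of the 27 genes with enough counts, 6 (*Pck1*, *G6pc*, *Ppargc1a*, *Pfkm*, *Pgam1* and *Eno1*) were higher in female cells in 3 of 3 contrasts, against 32.9% of 7337 genes, and 8 (*Ldha*, *Tpi1*, *Sord*, *Mpc1*, *Gapdh*, *Pcx*, *Pdha1* and *Ldhb*) were lower, against 19.2%. Some of these differences were close to 0, such as -0.01, -0.05 and -0.02 for *Ldhb*, which in PTs alone was higher in female cells at 0.03, 0.26 and 0.05. In PTs 10 genes were higher, against 35.8% of 7344 genes, and 6 were lower, against 15.8%. In PTc 7 of 26 genes were higher, against 15.9% of 7557 genes, and 5 were lower, against 17.2%. *Ldha*, *Tpi1* and *Sord* kept their direction in both clusters. Other directions changed within a cluster. In PTc *Mpc1* was at 0.21, -0.09 and -0.23, *Gapdh* at 0.28, -0.06 and 0.05 and *Pcx* at -0.22, 0.05 and 0.23. In PTs *G6pc* was at -0.16, 0.68 and 0.19. *Pdk4* had no common direction, with 26.3 and 3.79 CPM in KO female and KO male, 21.9 and 11.4 CPM in female and male cells of KO mix, but 12.3 and 22.1 CPM in those of WT mix. Pooled over libraries, *Xist* had 36.3 CPM in PT1, against 329 CPM in PTs and 910 CPM in PT2. The Y-linked *Ddx3y* had 20.3, 19.2 and 19.5 CPM there. The share of PT1 among sexed cells can therefore differ between the sexes. Its part in the contrasts within the mixed libraries was not tested. The 3 contrasts come from 3 libraries or pairs of libraries and have no test.

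**Figure D4:**
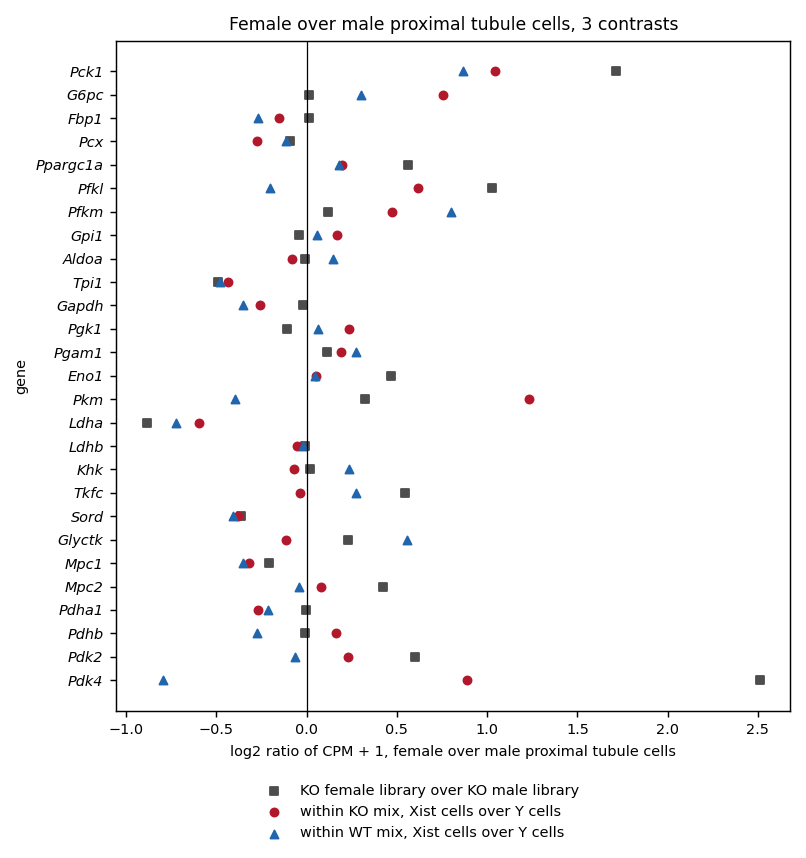
Difference between female and male PT cells (log2, female over male) of the genes in 3 contrasts, KO female against KO male and the sexed cells within KO mix and within WT mix. *Pck1* lies at 1.71, 1.05 and 0.87, *Pdk4* at 2.51 between KO female and KO male is the highest point, and *Ldha* lies at -0.89, -0.60 and -0.72.

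The question the libraries were made for is whether loss of *Fame* changes the kidney, and for sugar metabolism no difference passed the test. KO sums of counts, 1 per library and cell type, were compared with WT sums by the quasi-likelihood test of edgeR, two-sided, with Benjamini-Hochberg adjustment over all genes of the type at 0.05. In PTs 0 of 10342 genes were called (0%), among them 0 of 30 of the sugar genes, and DESeq2 and limma-voom also called 0. At an unadjusted p under 0.05 there were 12 genes in PTs (0.116%) and none of the sugar genes. In PTc the count was 38 of 9099 genes (0.418%), in PT1 12 of 5646 (0.213%), in PT2 25 of 6015 (0.416%) and in LOH 59 of 8952 (0.659%), again with 0 sugar genes and 0 genes called (0%). The 6 further types that could be tested and the sum of the 4 PT clusters also had 0 genes called (0%) by edgeR, by DESeq2 and by limma-voom. Genes with an unadjusted p under 0.05 by edgeR made up 0.571% of 2629 in PTf, 0.555% of 6123 in DCT, 0.599% of 5172 in CD PC, 0.595% of 5879 in CD IC/CD Trans, 0.298% of 7043 in GL endo, 0.121% of 1654 in smooth muscle (VSMC) and 0.0725% of 11034 in the PT sum, with sugar genes among them in CD PC alone. All these shares are well under what a threshold of 0.05 gives when no gene differs. The fit had no term for sex or run, so such differences between libraries enter its spread. A count of 0 calls therefore says little about whether levels were alike.

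In PTs, 17 of the 30 tested sugar genes had a KO to WT log2 fold change above 0 and 13 below, from -0.81 to 0.38 with a median of 0.05, against a median of 0.00 over all genes tested. In PTc 8 of 28 were above 0, in PT1 11 of 26, in PT2 12 of 26 and in LOH 13 of 28. *Pck1* in PTs, with the values given above, had a log2 fold change of -0.34 ± 0.79 (SE, edgeR adjusted p = 0.9999), and *Fbp1*, with 880, 861 and 927 CPM in KO female, KO male and KO mix, against 804 and 1016 CPM in WT female and WT mix, of -0.01 ± 0.33 (SE, edgeR adjusted p = 0.9999). Leaving out WT female moved the fold change of *Pck1* to 0.89, and blocking on sex composition gave -0.09 ± 0.10. Of the sexed PT cells 73.7% were female in KO mix and 28.2% in WT mix.

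The lowest unadjusted p of PTs belonged to *Ppargc1a* at -0.41 ± 0.28 and *Pfkm* at 0.38 ± 0.29, of PTc to *Pfkm* at -0.78 ± 0.45 and *Pfkp* at 0.74 ± 0.50, of PT1 to *Eno1* at -0.41 ± 0.35 and *Pdhb* at 0.28 ± 0.31, of PT2 to *Ldha* at 0.32 ± 0.37 and *Pck1* at -0.51 ± 0.60, and of LOH to *Eno1* at -0.37 ± 0.34 and *Sord* at 0.28 ± 0.28 (log2, SE, 3 KO and 2 WT libraries). Their unadjusted p ran from 0.122 to 0.412 by edgeR. The sign of *Pfkm* was opposite in PTs and PTc, at 5.38 to 16.1 CPM. A further list of enzymes and regulators of these pathways, with genes such as *Pck2*, *Pfkfb3*, *Hnf4a* and *Foxo1*, had 26 genes tested in the sum of the 4 PT clusters, of which 12 lay above 0 and 0 were called.

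In CD PC, chosen here after its values were seen, 2 sugar genes had an unadjusted p under 0.05 by edgeR (0 by DESeq2 and by limma-voom), as did 0.599% of 5172 genes. *Pck1* had 224, 164 and 202 CPM in KO female, KO male and KO mix, against 1137 and 180 CPM in WT female and WT mix, a log2 fold change of -1.75 ± 0.66 (SE, edgeR unadjusted p = 0.0277, adjusted p = 0.9999). WT female alone was high, and without it the fold change was 0.25. Without WT mix it was -2.56 with an edgeR adjusted p of 0.004003. The summed level of the 7 PT markers in CD PC, all of them above 0 in each library, was 544 to 724 CPM in the KO libraries, against 1418 CPM in WT female and 711 CPM in WT mix. *Fbp1* in CD PC was at -0.76 ± 0.33 (SE, edgeR adjusted p = 0.9999). The part of PT RNA in both values was not tested.

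**Figure D5:**
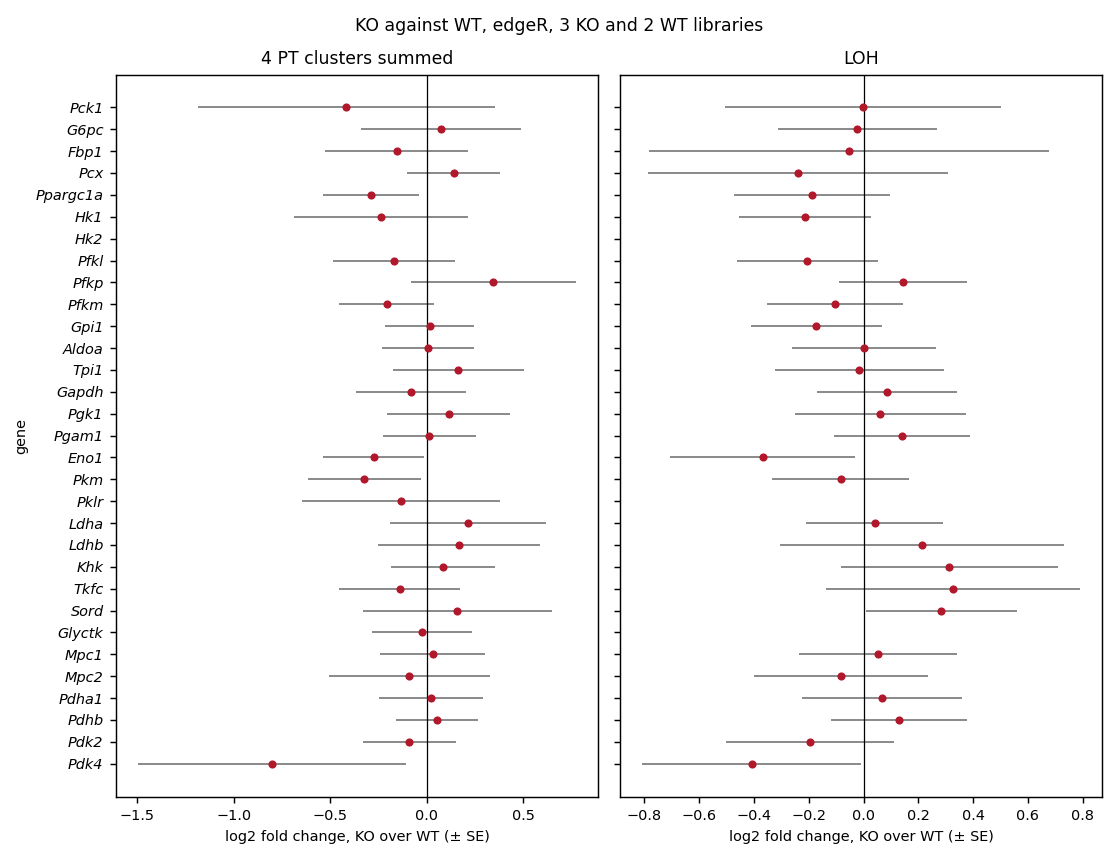
KO to WT log2 fold change (points) with its SE (bars) by edgeR, for the sum of the 4 PT clusters and for LOH, with genes that were not tested left blank. *Pdk4* in PT is the lowest point at -0.80 with an SE of 0.69, and 0 genes passed an adjusted p of 0.05.

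Whether the KO effect differed between PT and LOH was tested in edgeR by the interaction of genotype and cell class, blocked on library. Of 11713 genes 0 were called (0%), also by limma-voom, and 184 (1.57%) had an unadjusted p under 0.05. Of the 30 sugar genes tested 0 were called and 0 had an unadjusted p under 0.05, and the lowest was *Tkfc* at -0.50 ± 0.55 (PT effect minus LOH effect, log2, SE). With 3 KO and 2 WT libraries of differing sex and run, a p that misses the threshold does not show that the levels were alike.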

How the data were processed

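Single-cell RNA-seq of 5 kidney libraries was analysed from the processed files. The deposited matrix holds UMI counts, which the authors obtained from Cell Ranger 4.0.0 (mm10) and left unnormalised. The authors removed cells under 1000 UMIs or over 50% mitochondrial UMIs and genes in fewer than 3 cells, and deposited for each cell its percentage of mitochondrial UMIs, a Scrublet doublet score, its library, its run and its cell type from Seurat 3.2.2.9001. No cell was removed for the main values, doublets included, and the top 5% of doublet scores were left out as an alternative. Another 3 annotation columns and the UMAP coordinates were not used.

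A level is the sum of UMIs of a gene over the cells of a library and type, per 1000000 UMIs, for types with at least 20 cells in that library (18 types in at least 1 library), with log2 differences at a pseudocount of 1. Intervals and limits of 0 cover counting error only. KO was compared with WT on summed counts by edgeR 4.0.16 (TMM, its default filter on low counts, robust quasi-likelihood), adjusted over all genes of the fit, and alternatively by limma 3.58.1 (voom) and DESeq2 1.42.0 in R 4.3.3. The test was checked on simulated counts with 200 changed genes. The simulation gave all genes the same spread and held no difference of sex or run. It therefore does not show what the test could find in these libraries. Python 3.11.15 with pandas 2.3.3 was used. Promoter sequences are those of RefSeq and positions those of GENCODE on GRCm38, matched by symbol for all 31 genes.

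The genes, the list of 34 further pathway genes (32 in the matrix) and the tests were chosen with earlier results of these data known. The rule for named genes gives each gene its level in its highest type, and KO against WT values for the 2 genes of lowest p in PTs, PTc, PT1, PT2 and LOH and for *Pck1* and *Fbp1* in PTs. The sex contrasts, the run comparison, the GTTAAT search and *Pck1* and *Fbp1* in CD PC were chosen after values were seen. KO female and WT female share sex and run, as do KO mix and WT mix, and KO male has no partner, so sex composition was blocked only as an alternative. Further alternatives were the run as a block, no filter, at most 25% mitochondrial UMIs, at least 2000 UMIs, and omission of single libraries.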

Additional observations from a re-analysis of the deposited data

How the results depend on the processing

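Blocking on sex composition (replicate block) gave 23 genes called in PTc, 11 in PT1, 14 in PT2, 8 in LOH, 11 in PTf, 1 in DCT, 6 in CD PC, 7 in CD IC/CD Trans, 8 in GL endo and 4 in VSMC, against 0 without it, with 0 of the 31 genes among them. In this fit KO male has no partner. Blocking on run gave 2 genes in LOH, 11 in PTf, 1 in GL endo and 1 in VSMC. Without the filter on low counts 1 gene was called in PTf, 2 in CD PC, 11 in GL endo, 2 in VSMC and 4 for the difference between PT and LOH. Leaving out 1 library at a time gave 0 to 9 genes in PTf (9 without WT female), 0 to 10 in CD PC and 0 to 6 in GL endo (10 and 6 without WT mix), 0 to 9 in VSMC (9 without WT mix) and 0 to 2 for the difference between PT and LOH. The only sugar gene called was *Pck1* in CD PC, without WT mix (0 to 1 over the libraries left out), where its log2 fold change ran from -2.56 to 0.25. The sign of several KO to WT log2 fold changes also turned. *Pck1* ran from -1.23 to 0.89 in PTs and from -1.20 to 0.43 in PT2, *Ldha* from -0.0114 to 0.67 in PT2, and *Eno1* from -0.76 to 0.17 in LOH. *Fbp1* in PTs, at -0.01 in the main comparison, ran from -0.27 to 0.33, and was 0.007147 by limma-voom, 0.004087 without the filter, 0.07955 and 0.01393 with run and sex composition as a block, and 0.003721 with at most 25% mitochondrial UMIs. The cause of these changes was not tested. Of the fold changes recomputed under alternatives 153 kept their direction and side of the threshold, of the levels 263 moved by less than 1 SD and 47 by more, and 30 shares of cells moved when cells were not thinned. The 8 PT-high genes stayed the same except that *Pcx* dropped out with at most 25% mitochondrial UMIs, and *Pdk2* joined in that setting and without KO mix. The 6 PT-low genes were kept in each setting, and *Ldhb* joined without mitochondrial UMIs. The type with the highest mean changed for 1 to 4 of the 31 genes per setting, *Gpi1*, *Mpc2* and *Eno1* among them. Genes of few UMIs in PT (*Hk1*, *Hk2*, *Pfkp*, *Pklr*) limit what depth can show there.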
